A study of Mus musculus with 20 samples.

Results

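Transcripts of 42 cell cycle and DNA replication genes were followed in 20 RNA-seq libraries of cultured mouse forebrain slices. The genes were chosen by name, with earlier results of these data known: 16 of S phase, 21 of mitosis and 5 regulators. Shares of them that lay lower or higher are therefore descriptions. All 42 were found in both expression tables, which list 19722 genes at 4 h and 51912 at 24 h, and all 42 passed the filters on low values. The slices came from pups at postnatal day 4 and stood in medium with 5% horse serum for 4 h or 24 h. Genotypes refer to Tnfaip6, which codes for TSG-6, a secreted protein that binds the matrix sugar hyaluronan. The 4 h groups were wild type (WT, 3 libraries) and knockout (KO, 3 libraries), without a stated sex. At 24 h the controls were heterozygous (Het) for Tnfaip6, with 3 Het and 4 KO-labelled libraries from females and the same numbers from males. All slices had serum. The treatment text for 24 h speaks of WT, and the titles, which say heterozygous, were followed. Strain and the form of the Tnfaip6 allele are not stated in the labels. Whether replicates are different pups is not stated, and p-values therefore describe the spread among libraries, some of which may be technical. The question addressed by the comparisons is how loss of TSG-6 alters the slices, in a series on matrix changes in hypoxic-ischemic injury.

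A cell copies its DNA in S phase and separates the copies in mitosis. Each step has its own wave of transcripts: E2F factors, released from RB proteins when cyclin D kinases act, switch on replication genes, and a later wave driven by MYBL2, FOXM1 and the MuvB complex switches on mitosis genes. Neurons have left the cycle, and in the early postnatal forebrain these transcripts come from progenitors beside the ventricles, glial precursors and dividing glia, and cells of vessels and meninges. In bulk RNA, fewer dividing cells and less RNA per dividing cell cannot be told apart.

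The S phase genes were the helicase subunits Mcm2 to Mcm7, the loading factors Cdc6 and Cdt1, Gins2 of the helicase cofactor GINS, the polymerase epsilon subunit Pole2, the sliding clamp Pcna, the nucleotide enzymes Rrm1, Rrm2 and Tyms, and the cyclin E genes Ccne1 and Ccne2. The mitosis genes were the kinase Cdk1 with the cyclins Ccna2, Ccnb1 and Ccnb2, the kinases Plk1, Aurka and Aurkb, the Aurora B partner Birc5 (survivin), the checkpoint genes Bub1 and Bub1b, and Cdc20 and Ube2c, which drive protein destruction at anaphase. They also held the kinetochore genes Cenpe and Cenpf, the spindle motors Kif11 and Kif23, the microtubule binders Tpx2, Nusap1 and Prc1, the DNA-untangling enzyme Top2a and the proliferation antigen Mki67. The regulators were the D cyclins Ccnd1 and Ccnd2 and the transcription factors E2f1, Mybl2 and Foxm1.

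The promoter words searched for are known elements of replication and of mitosis genes. Their split between the lists is thus a description and not a test. Promoters were read from RefSeq (build GRCm38.p6) as the 250 bases before and 50 after each start, and 33 of the 42 genes had an entry: 13 S phase genes, 18 mitosis genes and 2 regulators. The 5 printed here are those of Mcm3 and Mcm6, helicase genes with E2F words, of Top2a and Mki67, the usual markers of dividing cells, and of Mcm2, a helicase gene with the word typical of mitosis genes. All 5 windows lie on the minus strand, at chr1:20820263-20820562, chr1:128359656-128359955, chr11:99024140-99024439, chr7:135716330-135716629 and chr6:88898731-88899030, and each line runs 5′ to 3′ in the direction of the gene. Capitals mark E2F words (TTTGGCGC, TTTCCCGC, TTTCGCGC, TTTGCCGC and TTTGGCGG), the cell cycle homology region or CHR (TTTGAA), and the NF-Y box (CCAAT), on either strand. E2F words on opposite strands can overlap, as in the longer run of capitals in Mcm6.
Mcm3: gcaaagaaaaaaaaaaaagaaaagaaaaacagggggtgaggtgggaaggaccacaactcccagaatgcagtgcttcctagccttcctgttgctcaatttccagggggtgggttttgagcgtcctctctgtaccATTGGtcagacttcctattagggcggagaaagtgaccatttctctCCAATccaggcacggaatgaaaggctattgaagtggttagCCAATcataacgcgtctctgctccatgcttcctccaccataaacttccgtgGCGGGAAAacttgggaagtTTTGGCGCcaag
Mcm6: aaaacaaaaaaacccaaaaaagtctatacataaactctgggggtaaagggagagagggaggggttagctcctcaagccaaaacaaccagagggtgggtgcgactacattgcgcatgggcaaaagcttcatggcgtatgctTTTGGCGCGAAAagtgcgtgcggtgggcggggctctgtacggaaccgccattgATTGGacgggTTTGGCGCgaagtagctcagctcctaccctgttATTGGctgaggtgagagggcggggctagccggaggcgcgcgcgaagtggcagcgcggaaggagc
Top2a: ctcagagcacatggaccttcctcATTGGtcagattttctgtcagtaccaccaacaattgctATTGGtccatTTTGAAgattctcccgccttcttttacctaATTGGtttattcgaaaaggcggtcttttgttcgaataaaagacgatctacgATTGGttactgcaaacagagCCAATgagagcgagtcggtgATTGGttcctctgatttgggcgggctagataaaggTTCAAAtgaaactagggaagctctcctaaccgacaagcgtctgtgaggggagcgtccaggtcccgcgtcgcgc
Mki67: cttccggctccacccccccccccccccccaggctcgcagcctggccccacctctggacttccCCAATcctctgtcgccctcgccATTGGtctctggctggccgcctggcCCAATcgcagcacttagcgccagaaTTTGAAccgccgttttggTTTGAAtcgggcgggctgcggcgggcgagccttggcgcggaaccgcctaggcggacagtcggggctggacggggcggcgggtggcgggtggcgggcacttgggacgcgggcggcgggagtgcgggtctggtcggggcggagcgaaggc
Mcm2: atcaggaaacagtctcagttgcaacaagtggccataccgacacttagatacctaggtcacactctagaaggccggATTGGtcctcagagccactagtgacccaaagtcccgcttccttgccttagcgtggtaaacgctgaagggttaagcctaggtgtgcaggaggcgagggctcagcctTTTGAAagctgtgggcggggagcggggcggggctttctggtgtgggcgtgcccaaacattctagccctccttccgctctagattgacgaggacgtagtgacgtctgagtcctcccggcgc

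An E2F word stood in the window of 7 of 13 S phase genes (53.9%), 1 of 18 mitosis genes (5.56%) and 3.18% of 27025 genes in the table. The S phase genes with it were Cdc6, Cdt1, Mcm3, Mcm5, Mcm6, Mcm7 and Pole2, and the mitosis gene was Cdk1. The CHR was found in 13 of 18 mitosis genes (72.2%), 1 of 13 S phase genes (7.69%) and 20.2% of all genes. The S phase gene with a CHR was Mcm2, and in its window no E2F word was found. The NF-Y box stood in 16 mitosis genes (88.9%), 8 S phase genes (61.5%) and 41.1% of all genes, and all 13 mitosis genes with a CHR also had it. For 3 genes, Cdc6, Mcm7 and E2f1, the start used lies 350, at least 539 and 466 bases past the 5′ end of the gene model, so the window is wholly inside the gene and does not cover the sequence before the gene. Of the regulators, Mybl2 had none of these words in its window, and the E2f1 window does not bear on its upstream promoter. Such matches are letters in a window and not measured binding sites.

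**Figure D1:**
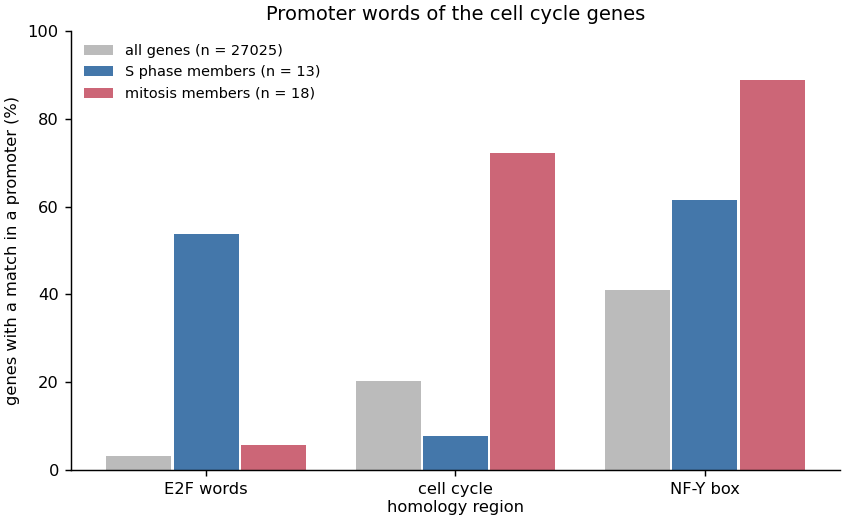
Share of genes (%) with a match to E2F words, the cell cycle homology region or the NF-Y box in the promoter window, for all 27025 genes with an entry, 13 S phase genes and 18 mitosis genes. E2F words were most frequent in S phase genes (53.9%) and the homology region in mitosis genes (72.2%). Cdc6 and Mcm7, counted among the S phase genes with E2F words, have windows inside the gene.

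Library totals were 11411532 to 15030171 reads at 4 h and 8482933 to 18051300 at 24 h. Tnfaip6 reads numbered 37 to 94 per library at 4 h and 45 to 108 at 24 h, and were not lost in libraries labelled KO, so the RNA level does not separate the genotypes and the groups are called KO-labelled. The library labelled KO female 2 had 0 reads of Xist and 826 of the Y-linked gene Ddx3y, and so went against its sex label. Het male 1 had 107 reads of Xist beside 656 of Ddx3y, whereas the other male-labelled libraries had at most 5 of Xist. At 4 h WT 1 and KO 1 had Xist reads (5655 and 2355), whereas the other 4 libraries had at most 3 and had Y-linked reads. Transcripts of choroid plexus, 8 markers such as Ttr, summed to 1523, 2777 and 493 CPM (counts scaled to library size) in KO female 1, KO female 3 and KO male 3, against 9.58 to 27.2 in the other 17 libraries. Forebrain markers summed to 128 to 194 CPM, and hindbrain markers to at most 0.556 CPM at 24 h, where Hoxa2, Hoxa3 and Hoxb3 had no read in any library.

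All 42 genes were read in every library, with 19 to 3763 reads per gene and library at 4 h and 9 to 3145 at 24 h. Per kilobase of exon, Pcna had the highest level in both tables, 30.3 ± 3.16 CPM per kb at 4 h and 34.8 ± 2.56 at 24 h (SD over all 6 and 14 libraries). Ccnd2 came next, at 21.8 ± 4.40 and 15.7 ± 3.60. Pole2 was lowest, at 0.625 ± 0.129 and 0.602 ± 0.230, and Cdc6, at 0.649 ± 0.189 at 24 h, differed from it by less than that spread. The median level of the S phase genes was 4.68 CPM per kb at 4 h and 3.94 at 24 h, and that of the mitosis genes 3.91 and 3.09. The median spread among libraries was larger for mitosis than for S phase genes: the highest library exceeded the lowest 1.52-fold against 1.39-fold at 4 h (medians over genes), and 1.93-fold against 1.71-fold at 24 h. Overlapping genes are annotated for Mcm7 (Ap4m1 and Cops6), Gins2 (Gse1), Ccne2 (Ints8), Ccna2 (Exosc9), Cdc20 (Elovl1), Ube2c (Tnnc2), Nusap1 (Oip5), Prc1 (Rccd1) and Ccnd1 (LTO1) among protein-coding genes on the opposite strand, and strand use in counting is not given in the sources used here. Overlaps on the same strand include Tex52 with Foxm1, Gm20388 with Cdt1 and Gm45399 with Rrm1.

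At 4 h, the mean level of most replication and mitosis genes was somewhat lower in KO-labelled slices than in WT, and no gene of the 42 passed the test. Of the 42, 38 had a log2 fold change below 0, against 49.4% of the 15181 genes tested. S phase genes had 15 of 16 below 0 with a median of -0.11, and mitosis genes 19 of 21 with a median of -0.21, while the median of all genes was 0.00. By limma, 0 members were called at an adjusted p under 0.05, against 7 of all genes (0.0461%). At an unadjusted p under 0.05 there were 9 members and 2110 of all genes. With a replicate block 0 members and 38 genes were called. In 7 members every KO-labelled library lay below every WT library, against 8.88% of all genes: Cdc6, Mcm2, Top2a, Birc5, Cdc20, Ccnd1 and Foxm1.

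Among replication genes, Mcm2, a subunit of the replicative helicase, had the smallest p. It stood at 416, 395 and 399 normalised reads in WT replicates 1 to 3 and at 273, 362 and 307 in the KO-labelled ones. Its log2 fold change was -0.37 ± 0.11 (SE; limma adjusted p = 0.185). The groups did not overlap, and KO 1 was lowest. Rrm2, the regulated subunit of ribonucleotide reductase, was read at 647, 588 and 608 in WT and 408, 603 and 470.0 in KO-labelled libraries, with a change of -0.33 ± 0.12 (limma adjusted p = 0.25). KO 2 lay within the WT range and the other KO-labelled libraries below it. Mcm6 gave 547, 566 and 523 against 466, 557 and 428 (-0.18 ± 0.10, limma adjusted p = 0.453), and again KO 2 alone lay within the WT range. Cdc6, which loads the helicase on DNA, had low values of 61.9, 62.1 and 75.2 against 39.5, 59.99 and 55.9 (-0.37 ± 0.21, limma adjusted p = 0.47). All 3 Cdc6 values of KO-labelled slices were below WT, with KO 2 only narrowly so. Pcna stood at 912, 1033 and 973 in WT and 836, 1071 and 835 in KO-labelled slices, and these ranges overlapped (two-sided exact permutation test of log2 levels, p = 0.6, where 3 against 3 allows no p below 0.1). With labels swapped only within same-numbered pairs the exact p was 0.5, and 0.25 is then the smallest possible. The remaining S phase genes had changes from -0.29 (Tyms) to 0.00 (Pole2).

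Among mitosis genes, Top2a, which untangles sister DNA, gave 1062, 1022 and 1108 normalised reads in WT and 716, 995 and 844 in KO-labelled slices. The change was -0.33 ± 0.10 (limma adjusted p = 0.192), without overlap. Ube2c, the E2 enzyme of the anaphase-promoting complex, stood at 239, 185 and 215 against 122, 188 and 164 (-0.44 ± 0.16, limma adjusted p = 0.252). Here KO 2 slightly exceeded the lowest WT library. Its partner Cdc20 gave 236, 208 and 229 against 178, 184 and 191 (-0.28 ± 0.11, limma adjusted p = 0.296), and Birc5 gave 111, 108 and 107 against 73.5, 81.2 and 96.96 (-0.38 ± 0.16, limma adjusted p = 0.308). Both were without overlap. Mki67 was read at 766, 603 and 726 in WT and 479, 775 and 534 in KO-labelled slices. Its highest value of all 6 was in KO 2, and the exact permutation test gave p = 0.4 (two-sided), or 0.5 with swaps within pairs. For the kinase Cdk1 the values were 278, 242 and 237 against 169, 256 and 245, and for its partner Ccnb1 209, 186 and 234 against 179, 255 and 220.2. KO 1 was lowest for both and the groups overlapped. Ccnb1 (0.05) and Cenpe (0.01) were the mitosis genes with a change above 0.

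Of the regulators, Ccnd1, the cyclin that links growth signals to the cycle, stood at 572, 508 and 633 in WT and 502, 451 and 497 in KO-labelled slices (-0.24 ± 0.10, limma adjusted p = 0.301). The groups did not overlap, though WT 2 and KO 1 were close. Ccnd2, the D cyclin of neural progenitors, gave 3017, 2494 and 2863 against 1802, 3319.6 and 2440.1 (-0.19 ± 0.16, limma adjusted p = 0.629). The lowest and the highest value both belonged to KO-labelled slices, and without KO 1 the change was 0.03. Foxm1 gave 357, 279 and 281 against 241, 268 and 229, and Mybl2 75.1, 86.7 and 85.4 against 61.4, 80.3 and 69.6. Foxm1 was without overlap and Mybl2 was not. E2f1 went the other way, at 242, 184 and 186 in WT and 219, 202 and 259 in KO-labelled slices (0.16).

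The 4 h difference was uneven among the KO-labelled libraries. A score, the mean over the S phase genes of each library's log2 level minus the mean over all libraries of the table, was 0.07, 0.08 and 0.08 in WT and -0.24, 0.09 and -0.08 in KO-labelled replicates 1 to 3. For mitosis genes it was 0.16, 0.02 and 0.15 and -0.37, 0.11 and -0.07. KO 1 held the lowest value in 32 of 42 genes, among them 20 of the 21 mitosis genes. WT 1 held the highest value in 15 genes and KO 2 in 14. The scores of KO 2 lay within or above the WT range. Without KO 1, 30 of 42 genes had a change below 0 and the mitosis median was -0.10. Without KO 2, Mcm2, Rrm2, Top2a and Mki67 were called lower (limma, 4 of 42; smallest adjusted p = 0.0207), among 211 of 15207 genes. Without WT 1 and KO 1, the libraries with Xist reads, 26 of 42 were below 0, with medians of -0.09 for S phase and -0.04 for mitosis genes.

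**Figure D2:**
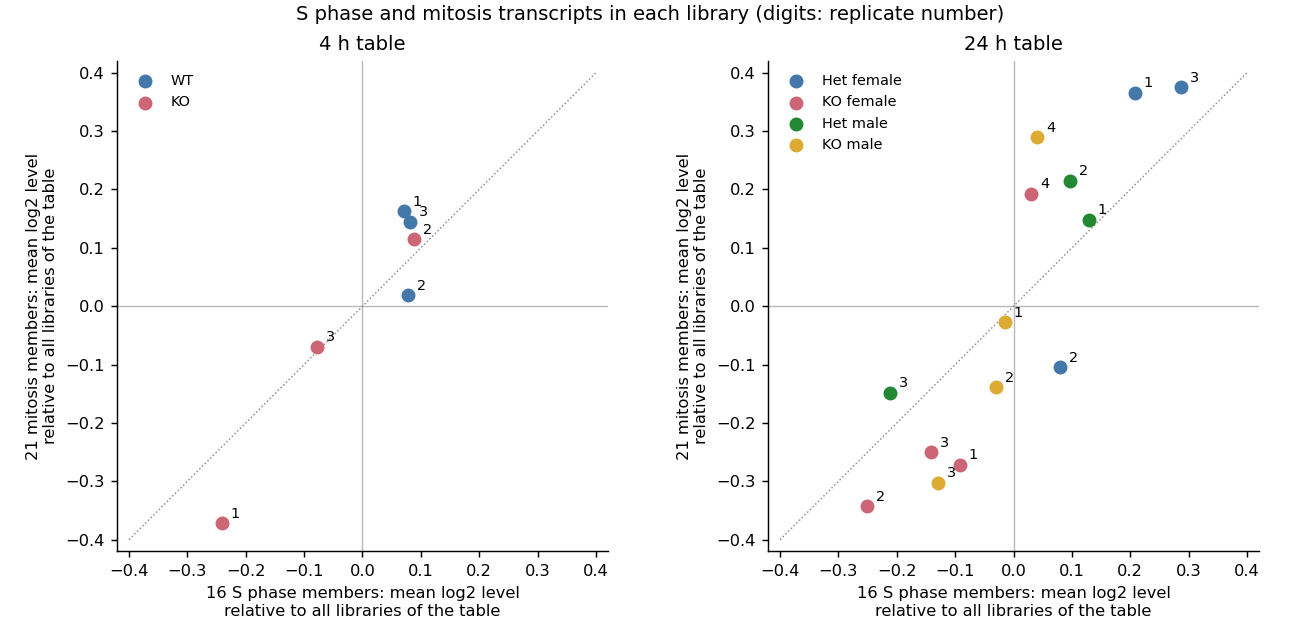
Mean log2 level of the 16 S phase genes (x axis) and the 21 mitosis genes (y axis) in each library, relative to the mean of all libraries of its table; digits are replicate numbers and the dotted line marks equal scores. At 4 h KO 1 stands apart at -0.24 and -0.37, and at 24 h Het females 1 and 3 have the highest scores on both axes.

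At 24 h, all 42 genes had a log2 fold change below 0 in KO-labelled against Het females, and none passed the test. The changes ranged from -1.16 for Pole2 to -0.0034 for Ccne1, which is next to no difference. A log2 fold change below 0 was found for 48.8% of the 16013 genes tested. The median was -0.24 for S phase genes, -0.37 for mitosis genes and -0.31 for regulators. edgeR called 0 members and 0% of all genes at an adjusted p under 0.05, with 20 members and 657 genes at an unadjusted p under 0.05, and DESeq2 called 0 members and 1 gene. Without the filter on low counts edgeR called 6 members lower (Bub1b, Ccnd2, Mki67, Top2a, Rrm2 and Kif11) among 180 of 30270 genes. Its prior degrees of freedom were then infinite, against 6.47 with the filter. In 4 members, Cdc6, Pole2, Bub1b and Mybl2, every KO-labelled female library lay below every Het female library, as in 2.40% of all genes. Without the library labelled KO female 2, 40 of 42 were below 0 with medians of -0.21 (S phase) and -0.32 (mitosis). Without Het female 3, 39 of 42 were below 0.

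The replication gene with the largest difference was Pole2, a subunit of the leading-strand polymerase, at 2.42, 2.89 and 2.89 CPM in Het females 1 to 3 and 1.42, 1.12, 1.01 and 1.35 in KO-labelled females 1 to 4. The log2 fold change was -1.16 ± 0.26 (SE; edgeR adjusted p = 0.9998), from only 9 to 44 reads per library. Gm49384 overlaps Pole2 on the same strand and Gm47545 on the other. Cdc6 gave 4.38, 4.34 and 5.54 against 2.62, 2.62, 2.25 and 3.49 CPM (-0.80 ± 0.23, edgeR adjusted p = 0.9998), again without overlap and from 21 to 67 reads. Rrm2 gave 36.2, 28.4 and 43.1 against 24.6, 20.8, 26.3 and 31.7 (-0.47 ± 0.16) and Mcm3 25.2, 20.2 and 25.9 against 14.5, 17.7, 18.9 and 21.02 (-0.39 ± 0.16), both with an edgeR adjusted p of 0.9998. In both genes KO female 4 reached above Het female 2. Mcm2 stood at 25.5, 20.8 and 25.8 against 20.7, 18.8, 18.6 and 22.1, and Pcna at 89.8, 82.9 and 92.5 against 85.3, 82.5, 75.7 and 86.9. The Pcna groups overlapped (exact permutation test, two-sided p = 0.2), and its change of -0.10 was among the smaller ones.

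Among mitosis genes, the checkpoint kinase Bub1 stood at 8.16, 5.18 and 7.27 CPM in Het and 3.74, 4.11, 4.61 and 6.03 in KO-labelled females (-0.57 ± 0.19), and its relative Bub1b at 16.5, 16.4 and 17.3 against 10.6, 9.81, 12.5 and 13.2 (-0.53 ± 0.19). Het female 2 was the lowest Het library for Bub1, below KO female 4, whereas the Het libraries were alike for Bub1b. Mki67 gave 45.2, 28.4 and 44.1 against 23.1, 26.2, 26.3 and 30.8 (-0.56 ± 0.20; exact permutation test, two-sided p = 0.0571, where 0.0286 is the smallest possible). Only Het female 2 came within the KO range. Ccna2, the cyclin that spans S phase and entry into mitosis, gave 15.8, 14.01 and 16.9 against 9.81, 9.62, 9.60 and 15.1 (-0.50 ± 0.18), and KO female 4 stood with the Het libraries. The edgeR adjusted p of these 4 genes was 0.9998. Top2a stood at 60.6, 40.7 and 66.9 against 34.4, 31.8, 39.8 and 51.2, Cdk1 at 18.2, 12.03 and 16.5 against 11.1, 11.02, 12.3 and 15.5 and Ccnb1 at 18.8, 13.7 and 19.3 against 11.2, 10.2, 15.2 and 16.6. In all 3, KO female 4 lay above Het female 2, and for Cdk1 and Ccnb1 so did KO female 3.

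Among the regulators, Ccnd2 gave 201, 131 and 217 CPM in Het and 110.4, 126, 113 and 163 in KO-labelled females (-0.51), Mybl2 6.87, 4.65 and 5.79 against 3.59, 3.18, 3.88 and 4.05 (-0.65), and Foxm1 18.4, 14.4 and 19.4 against 13.1, 9.71, 15.6 and 17.6 (-0.31). Het female 2 was the lowest Het library for all 3, and Mybl2 was without overlap, on 29 to 91 reads per library. Ccnd1 stood at 50.9, 50.3 and 46.1 against 45.4, 48.8, 48.8 and 48.5 (-0.04), and E2f1 at 15.1, 10.97 and 13.9 against 11.98, 12.5, 11.7 and 14.8 (-0.07), with nearly the same range in both groups.

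In males at 24 h the median differences were smaller and no gene of the 42 passed the test. Of the 42 genes, 34 had a change below 0, against 50.3% of all genes, with medians of -0.04 for S phase and -0.08 for mitosis genes. edgeR called 0 members and 0% of all genes (0 members and 1100 genes at an unadjusted p under 0.05). No member had groups without overlap in the lower direction, against 3.77% of all genes. Without KO male 3, 20 of 42 were below 0 and the mitosis median was 0.01.

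The S phase genes with the smallest p in males were Pcna, at 90.7, 89.3 and 77.3 CPM in Het and 72.9, 83.5, 76.7 and 83.6 in KO-labelled males (-0.12 ± 0.08), and Mcm5, at 26.6, 25.7 and 16.4 against 18.8, 19.1, 16.6 and 22.9 (-0.25 ± 0.17). Pole2 gave 1.67, 2.51 and 1.36 against 0.998, 1.42, 1.58 and 1.67 (-0.40 ± 0.27) and Mcm6 58.6, 56.1 and 48.9 against 48.2, 53.99, 49.3 and 52.6 (-0.10 ± 0.09). Het male 3 lay among the KO-labelled libraries for Pcna, Pole2 and Mcm6 and below all of them for Mcm5, and the edgeR adjusted p was 0.788 to 0.832. Aurkb, the kinase of the chromosomal passenger complex, had the largest difference of the mitosis genes, at 8.86, 7.58 and 6.42 against 6.21, 4.63, 3.25 and 7.08 (-0.52 ± 0.26, edgeR adjusted p = 0.735). KO male 4 reached above Het male 3. Prc1 gave 17.9, 16.99 and 17.9 against 15.5, 15.4, 10.9 and 17.6 (-0.24 ± 0.17), Bub1 6.80, 6.67 and 5.35 against 4.32, 5.46, 5.56 and 5.72 (-0.25 ± 0.20) and Kif23 9.85, 10.1 and 10.4 against 6.98, 10.3, 8.53 and 9.78 (-0.19 ± 0.19), with edgeR adjusted p of 0.8 to 0.864. KO males spread more widely than Het males for Prc1 and Kif23, and all 3 overlapped.

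Mki67, as the marker of dividing cells, stood at 38.5, 34.5 and 19.6 in Het and 32.03, 30.7, 26.1 and 40.7 in KO-labelled males (exact permutation test, two-sided p = 0.8). Top2a gave 49.7, 52.2 and 34.4 against 42.2, 42.004, 33.9 and 62.1, and Mcm2 23.4, 24.2 and 18.8 against 22.3, 23.9, 18.3 and 24.01. The lowest Mki67 value of the table was that of Het male 3, and KO male 4 had the highest Top2a value among males. Cdk1 gave 15.8, 17.4 and 10.6 against 14.7, 11.2, 11.96 and 17.4, Ccnb1 17.3, 17.3 and 14.8 against 16.3, 10.7, 14.3 and 17.5 and Ccnd2 141, 179 and 116 against 128, 139, 128 and 171. Here too the KO-labelled values enclosed or overlapped those of Het. E2f1 was somewhat higher in KO-labelled males, at 12.1, 15.1, 12.5 and 14.6 against 10.5, 14.1 and 10.5 in Het (0.20), while Foxm1 gave 15.5, 17.5 and 16.9 against 15.9, 13.4, 13.6 and 17.1, Mybl2 4.14, 4.62 and 4.57 against 3.44, 3.44, 4.08 and 5.41 and Ccnd1 52.6, 52.2 and 51.8 against 53.5, 48.8, 46.2 and 43.3. For all 4 the groups overlapped.

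**Figure D3:**
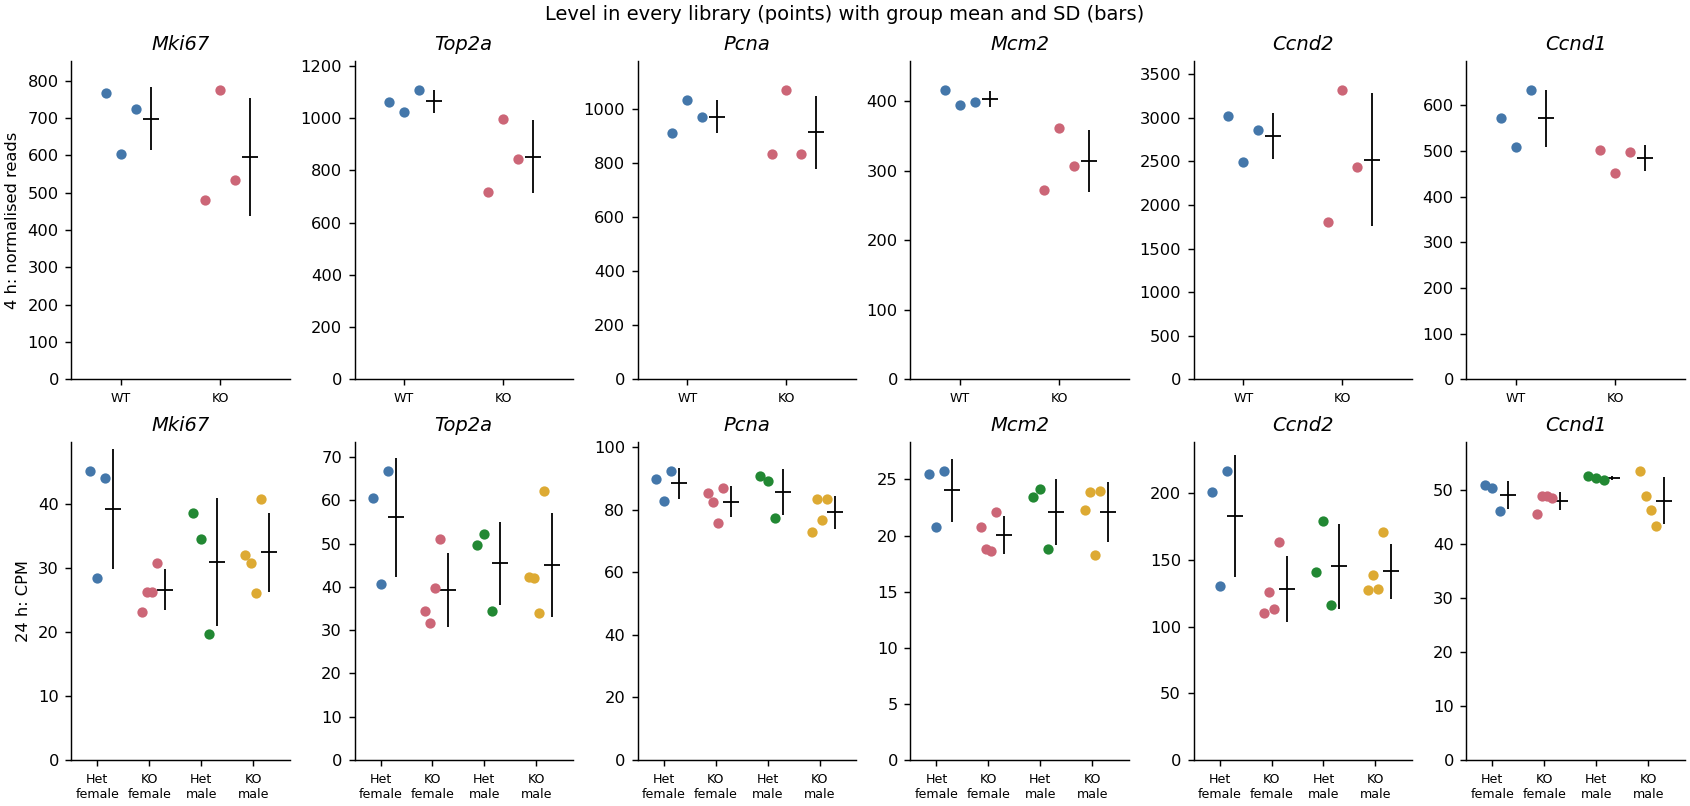
Level of 6 cell cycle genes in every library, as normalised reads at 4 h (upper row) and CPM at 24 h (lower row), with the group mean and SD as bars and all axes starting at 0. At 24 h Het females 1 and 3 stand above the other libraries for Mki67 and Ccnd2, while Pcna and Ccnd1 vary little.

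Over both sexes at 24 h, 38 of 42 genes had a change below 0 (all 21 mitosis genes and 13 of 16 S phase genes), against 50.0% of all genes. The medians were -0.13 for S phase and -0.24 for mitosis genes, and without the 3 libraries with choroid plexus transcripts they were -0.09 and -0.13. edgeR called 0 members and 0% of all genes (14 members and 1060 genes at an unadjusted p under 0.05), and DESeq2 0 members and 5 genes. Without the filter, and with infinite prior degrees of freedom, edgeR called Ccnd2, Top2a, Rrm2 and Kif11 lower, among 263 of 30270 genes. No member was without overlap in both sexes, against 0.0999% of all genes. The S phase genes with the smallest p were Pole2 (-0.78 ± 0.19), Mcm5 (-0.29 ± 0.12), Cdc6 (-0.42 ± 0.17) and Rrm2 (-0.28 ± 0.12), each with an edgeR adjusted p of 0.738. The mitosis genes were Bub1 (-0.41 ± 0.14), Aurkb (-0.49 ± 0.18), Kif11 (-0.36 ± 0.15) and Ccna2 (-0.29 ± 0.13), with edgeR adjusted p of 0.738 to 0.753. The spindle motor Kif11 stood at 21.7, 15.4 and 28.7 CPM in Het and 11.7, 15.4, 14.7 and 19.8 in KO-labelled females, and at 21.1, 21.6 and 18.5 and 16.7, 15.4, 13.2 and 24.96 in males. In females, KO female 4 reached above Het female 2. Ccnd2 had a change of -0.28 ± 0.12 (edgeR adjusted p = 0.745) and Ccnd1 of -0.08 ± 0.05 (0.819). With labels permuted within sex, the exact test gave p = 0.29 for Mki67 and 0.0604 for Pcna (two-sided).

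The female and male contrasts were compared by their difference. It was below 0 in 3 of the 42 genes, against 49.9% of all genes, and so above 0, towards males, in 39. The median was 0.22 for S phase and 0.29 for mitosis genes. No member passed (0 called by edgeR, 2 at an unadjusted p under 0.05) and 0% of all genes did, with 618 at an unadjusted p under 0.05 and 1 called by DESeq2. The members with the smallest p were Cdc6 (0.76 ± 0.34), Pole2 (0.75 ± 0.38), Mcm7 (0.33 ± 0.20) and Rrm2 (0.37 ± 0.23) of S phase, and Mki67 (0.63 ± 0.29), Bub1b (0.51 ± 0.27), Top2a (0.50 ± 0.30) and Cdc20 (0.42 ± 0.25) of mitosis, all with an edgeR adjusted p of 0.977. Without the filter, and with infinite prior degrees of freedom, edgeR called Ccnd2, Mki67 and Top2a, among 165 of 30270 genes. With the filter, none of the 42 differences between the sexes passed the test. Without the library labelled KO female 2, which had Y-linked reads, 5 of the 42 differences were below 0. Without the 3 libraries with choroid plexus transcripts, 3 were.

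**Figure D4:**
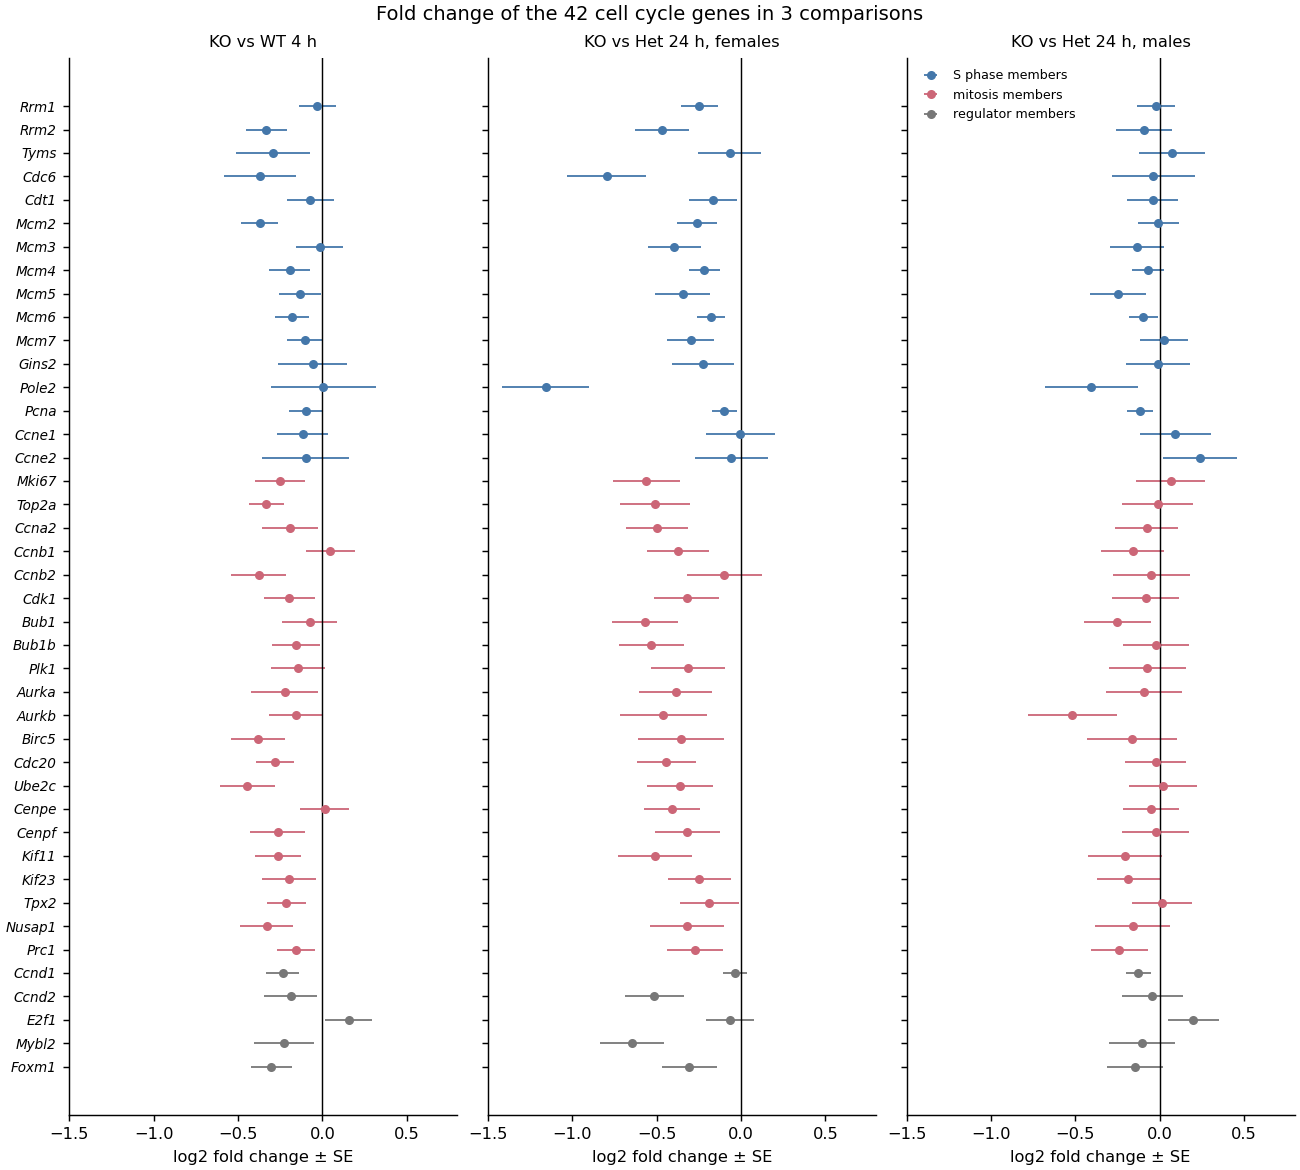
Log2 fold change with its SE for each of the 42 genes, S phase genes at the top, in KO-labelled against WT at 4 h, and against Het at 24 h in females and in males. All 42 points lie below 0 in females, from -1.16 for Pole2 to 0.00 for Ccne1, while in males most lie near 0.

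Mitosis genes had the lower median in each contrast with the controls, but by library the difference between the lists overlapped between groups. The gap between medians (S phase minus mitosis, log2) was 0.10 at 4 h, 0.14 in females, 0.04 in males and 0.11 over both sexes. The contrast over both sexes averages those of females and males. Without the 3 libraries with choroid plexus transcripts the gap was 0.05 in females and 0.04 over both sexes. In males it was -0.02 without KO male 3, and at 4 h it was 0.02 without KO 1 and -0.05 without the libraries with Xist reads. By library at 24 h, the S phase score was 0.21, 0.08 and 0.29 in Het females and -0.09, -0.25, -0.14 and 0.03 in KO-labelled females, so these groups did not overlap. The mitosis score was 0.37, -0.10 and 0.38 in Het and -0.27, -0.34, -0.25 and 0.19 in KO-labelled females, and they overlapped through Het female 2 and KO female 4. In males the S phase scores were 0.13, 0.10 and -0.21 in Het and -0.02, -0.03, -0.13 and 0.04 in KO-labelled slices, and the mitosis scores 0.15, 0.22 and -0.15 and -0.03, -0.14, -0.30 and 0.29. Het female 3 and Het female 1 held the highest value in 18 and 10 of the 42 genes, and KO female 2 the lowest in 12, KO female 1 and KO male 3 in 7 each and Het male 3 in 6. Both scores were highest in Het females 3 and 1. KO male 4 was high for the mitosis score (0.29) and near the middle for the S phase score (0.04). The S phase score minus the mitosis score was -0.09 to 0.06 in WT and -0.03 to 0.13 in KO-labelled libraries at 4 h. At 24 h it was -0.16 to 0.18 both in Het and in KO-labelled females. In males it was -0.12 to -0.02 in Het and -0.25 to 0.17 in KO-labelled slices.

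Other genes of the cycle were read from 4 further lists, and none passed the test in any comparison. Of 28 further replication genes tested, 18 were below 0 at 4 h (median -0.07), 27 in females (-0.21) and 21 in males (-0.11). Of 36 further mitosis genes, 29 were below 0 at 4 h (-0.13), 34 in females (-0.28) and 29 in males (-0.10). The cell cycle brakes, such as the CDK inhibitors and RB genes, had 7 of 12 below 0 at 4 h (-0.04), 5 in females (0.01) and 4 in males (0.03). G1 kinases and E2F family genes had 8 of 13, 9 and 8 below 0 (-0.11, -0.12 and -0.04). In females most of the further replication and mitosis genes were thus below 0, and fewer of the brakes. Over both sexes the counts below 0 were 26 and 35 for further replication and mitosis genes, 6 for brakes and 8 for G1 kinases and E2F genes, and for the difference between sexes they were 9, 7, 5 and 4.

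Named by the smallest p, the brakes at 4 h were Btg2, an antiproliferative immediate early gene (-0.52 ± 0.10, limma adjusted p = 0.0909), and the RB relative Rbl1 (-0.37 ± 0.16, 0.316). At 4 h the other lists gave Ccnd3 (-0.28 ± 0.10) and Cdk2 (-0.44 ± 0.19), the replication kinase Cdc7 (-0.46 ± 0.13) and Uhrf1, which maintains DNA methylation (-0.24 ± 0.12), and Kif15 (-0.50 ± 0.18) and Fbxo5 (-0.50 ± 0.20), with limma adjusted p of 0.178 to 0.407. In females they were Btg1 (-0.20 ± 0.10) and Cdkn1c (0.28 ± 0.14), Cdk4 (-0.19 ± 0.08) and E2f8 (-0.56 ± 0.32), Uhrf1 (-0.55 ± 0.18) and the primase Prim1 (-0.40 ± 0.14), and Spc25 (-0.58 ± 0.21) and Ect2 (-0.42 ± 0.16), all with an edgeR adjusted p of 0.9998. Cdkn1c, which codes for the CDK inhibitor p57, was the gene among these 8 with a higher value in KO-labelled females. In males they were Rb1 (0.23 ± 0.08) and Cdkn2d (-0.18 ± 0.07), Cdk6 (0.32 ± 0.14) and Cdk2 (-0.27 ± 0.14), the origin gene Orc1 (-1.01 ± 0.42) and Gmnn, the geminin that blocks relicensing (-0.49 ± 0.22), and Cks2 (-0.56 ± 0.21) and Bub3 (-0.11 ± 0.07), with edgeR adjusted p of 0.718 to 0.782.

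Over both sexes the lists gave Cdkn2c (-0.34 ± 0.14) and Rb1 (0.12 ± 0.06), Cdk2 (-0.24 ± 0.10) and Cdk4 (-0.14 ± 0.06), Prim1 (-0.30 ± 0.10) and the helicase cofactor Cdc45 (-0.45 ± 0.15), and Cks2 (-0.43 ± 0.14) and Spc25 (-0.39 ± 0.15), with edgeR adjusted p of 0.738 to 0.753. For the difference between sexes they were Cdkn2d (-0.20 ± 0.10) and Btg1 (0.27 ± 0.14), E2f8 (0.76 ± 0.45) and E2f5 (0.23 ± 0.17), Chaf1b (0.51 ± 0.28) and Uhrf1 (0.39 ± 0.25), and Smc2 (0.38 ± 0.19) and Bub3 (-0.19 ± 0.10), all with an edgeR adjusted p of 0.977. Of these 8 differences between sexes, 6 were above 0, towards males.

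Markers of cell types that could be in the slices were read in the same libraries. At 4 h all 9 radial glia and progenitor markers were below 0 (median -0.22), as were all 8 of meninges (-0.53), 7 of 7 of endothelium (-0.32) and 7 of 7 of astrocytes (-0.08), while all 8 excitatory neuron markers were above 0 (0.37). Summed levels in WT and KO-labelled libraries were 1154 to 1199 and 934 to 1095 CPM for progenitor markers, 252 to 335 and 187 to 288 for meninges, 251 to 301 and 210.3 to 241 for endothelium, 1763 to 2120 and 1697 to 1740 for astrocytes, and 1313 to 1418 and 1608 to 1666 for excitatory neurons. For progenitors, endothelium, astrocytes and excitatory neurons these ranges of sums did not overlap. By the score, the mean over markers of relative log2 levels, astrocytes did overlap (-0.06 to 0.14 in WT, -0.13 to -0.02 in KO-labelled libraries). Of all single genes, 8.88% had every KO-labelled library below every WT library, and 1539 of 15181 had the reverse. At 4 h microglia had 6 of 8 markers below 0 (-0.05), oligodendrocyte precursors 5 of 6 (-0.12), the olfactory interneuron lineage 5 of 8 (-0.05), choroid plexus 3 of 4 tested (-0.27) and forebrain 3 of 5 (-0.09). No marker passed the limma test at 4 h. The part of these cells in the cell cycle result was not tested.

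In females at 24 h all 8 markers listed for the olfactory interneuron lineage were below 0 (median -0.29). They were Dlx1, Dlx2, Dlx5, Sp8, Sp9, Dcx, Gad1 and Gad2, and whether they mark that lineage alone was not tested. Their score was 0.24, 0.11 and 0.24 in Het and -0.36, -0.40, -0.09 and 0.18 in KO-labelled females, with KO female 4 again beside the Het libraries. Summed levels were 1462 to 1657 CPM in Het and 1314 to 1605 in KO-labelled females. Progenitor markers had 5 of 9 below 0 (0.00). Their score was 0.15, 0.12 and 0.07 in Het females and -0.15, -0.19, 0.54 and -0.10 in KO-labelled females, so KO female 3, a library with choroid plexus transcripts, stood highest and the other 3 KO-labelled libraries lay below every Het female. In males it was -0.07, 0.10 and 0.11 in Het and -0.31, -0.03, -0.30 and 0.05 in KO-labelled slices, which overlapped. In females, astrocytes had 4 of 7 markers below 0 (-0.06), microglia 5 of 8 (-0.05), endothelium 3 of 7 (0.04), meninges 7 of 8 (-0.09), oligodendrocyte precursors 1 of 6 (0.05), excitatory neurons 1 of 8 (0.08) and forebrain 3 of 5 (-0.03). Choroid plexus markers were all 8 above 0 (1.97). KO female 1 and KO female 3, which held choroid plexus transcripts, had mitosis scores of -0.27 and -0.25, and KO male 3 one of -0.30. Without these 3 libraries, 40 of the 42 genes were below 0 in females with medians of -0.22 and -0.27, and 20 of 42 in males. In males the interneuron lineage had 6 of 8 markers below 0 (-0.12), progenitors 8 of 9 (-0.17), oligodendrocyte precursors 5 of 6 (-0.23), microglia 7 of 8 (-0.20), astrocytes 6 of 7 (-0.18) and meninges 1 of 8 (0.27). Whether cell makeup accounts for these values was not tested.

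KO-labelled libraries were present at both times and are given side by side as CPM of the library total. The tables were counted and filtered separately, and the 24 h groups hold 8 libraries of labelled sex, so no test was made. All 21 mitosis genes had a lower mean at 24 h, at 0.54 to 0.89 times the 4 h mean (median 0.77), while S phase genes ranged from 0.72 to 1.51 (median 0.93). Over the 15090 genes that passed both filters the median ratio was 1.09, and 35.6% had a lower mean at 24 h. Aurkb was lowest, at 5.39 ± 1.54 CPM (SD, n = 8) against 10.05 ± 1.61 (n = 3), and in Aurkb and Bub1 all 24 h values lay below those at 4 h, as in 8.95% of all genes. The same held for Rrm1 (0.719 times), Cdt1 (0.739 times) and E2f1 (0.758 times). Gins2 went from 3.55 ± 0.38 at 4 h to 5.34 ± 0.72 at 24 h and Mcm6 from 36.8 ± 4.70 to 49.6 ± 3.46, both without overlap, as in 24.5% of all genes. Ccnd1, a serum-responsive cyclin, also stood higher at 24 h (47.6 ± 2.91 against 36.8 ± 2.42) without overlap, whereas Ccnd2 stood at 134 ± 23.3 against 192 ± 56.8 and overlapped.

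**Figure D5:**
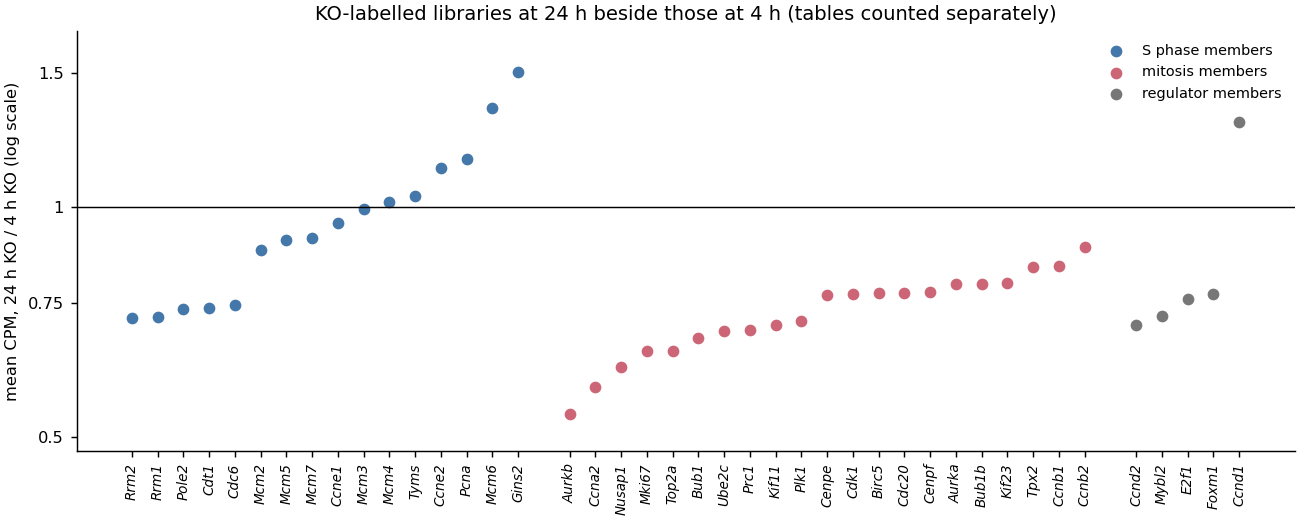
Mean CPM of each gene in the 8 KO-labelled libraries at 24 h divided by that in the 3 at 4 h (log axis), ordered within S phase, mitosis and regulator genes. All 21 mitosis genes lie below 1, while Gins2, Mcm6 and Ccnd1 reach 1.51, 1.35 and 1.29.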

How the data were processed

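Per the labels' protocols, total RNA of 20 slice samples was made into libraries by Smart Seq V4. TopHat2, HTSeq, DESeq2 1.38.3 and the build GRCm38 (mm10) are named, without roles, in the submitters' processing notes. For 24 h the authors deposited counts of reads per gene. For 4 h the deposited values are a signal, reads over a factor of each library. Multiplying back gave whole reads for 100% of values (within 0.05), on which edgeR called 7 genes.

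At 4 h limma 3.58.1 with an intensity trend was run on log2(value + 1) for 15181 genes with a mean of at least 10; such fold changes understate those of low genes. At 24 h edgeR 4.0.16 (R 4.3.3) used TMM scaling, its default filter (16013 genes), the quasi-likelihood test and 1 mean per genotype and sex. Adjusted p-values are Benjamini-Hochberg values over all genes, two-sided, threshold 0.05. DESeq2 1.42.0, other filters and pseudocounts, a replicate block and leaving out libraries were alternatives. Leaving out the libraries with Xist reads or choroid plexus transcripts, lists without genes that span phases, and swaps within pairs were chosen after seeing the data. Fits were tested on simulated data with changes larger than most of those given here. Recovery of smaller changes was not tested. Levels at 24 h are CPM with TMM scaling, and those per kilobase and the 24 h to 4 h ratios use library totals.

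Libraries of the same number deviated together at 4 h (correlations 0.264, 0.140 and 0.176 over genes), and at 24 h they did not. Other WT and KO-labelled pairs at 4 h had correlations of -0.218 to 0.0638. No label says what a shared number means, so pairing at 4 h is an inference. Statistics given per gene at 4 h are from the fit without a block. With the block the smallest limma adjusted p of the 42 genes was 0.155. Named with full statistics were the 4 S phase and 4 mitosis genes with the smallest p in each comparison, with Ccnd1 and Ccnd2, and the 2 smallest of each further list. Members, lists and markers were chosen with earlier results of these data known. Symbols were matched for 19673 and 51633 identifiers, and overlaps and exon lengths are from GENCODE on GRCm38. Marker lists were radial glia and progenitors, olfactory interneuron lineage, oligodendrocyte precursors, astrocytes, microglia, endothelium, meninges, choroid plexus, excitatory neurons, forebrain and hindbrain.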

Additional observations from a re-analysis of the deposited data

Results flagged for a closer look

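Of 64 values tested in groups of 4 libraries, 5 had a library set apart from the rest by a gap that took most of the range of its group, and chance gives about 1 in 20. In KO-labelled females Ccna2 had a gap of 0.963 of the range (KO female 4 high, at 15.1 CPM against 9.60 to 9.81), Ccnd1 0.91 (KO female 1 low) and Prc1 0.837 (KO female 4 high). In KO-labelled males Mcm3 had a gap of 0.918 (KO male 4 high) and the score of the 5 regulators 0.844 (KO male 4 high).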

How the results depend on the processing

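At 4 h, where 7 genes and 0 members were called, the counts of genes were 28 with a robust limma prior, 146 with DESeq2 on recovered reads, 38 with the replicate block, 1 to 211 leaving out a library, and 1 without both libraries with Xist reads. Members called ranged from 0 to 4 leaving out a library (4 without KO 2). The S phase median ranged from -0.23 to -0.0794 leaving out a library. The gap between S phase and mitosis medians was -0.052 without WT 1 and KO 1. The Ccnd2 change ranged from -0.41 to 0.033 leaving out a library and was 0.091 without both libraries with Xist reads. At 24 h, where 0 were called, edgeR without the filter on low counts called 180 genes in females, 220 in males, 263 over both sexes and 165 for the difference, with 6, 0, 4 and 3 members; the prior degrees of freedom of edgeR were then infinite, against 6.47 with the filter. DESeq2 called 1, 0, 5 and 1 genes, and in males gave an adjusted p for 2 of 42 members. The replicate block, at 24 h resting on numbers alone, called 6, 0, 6 and 4 genes and no member. Over both sexes 0 to 2 genes were called leaving out a library, and fitting the male libraries alone called 1 in males; the cause was not tested. Without genes that span phases the gap between S phase and mitosis medians stayed above 0 at 4 h, in each sex and over both (0.09, 0.10, 0.03 and 0.10). Low reads limit Pole2, Cdc6 and Mybl2, each under 30 reads in some library.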
